A study of Mus musculus with 8 samples.

Results

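The autophagy genes described here are 35 named genes of the core machinery: the kinase complexes that start an autophagosome, the proteins that supply its membrane, the enzymes that attach LC3 and GABARAP to it, those 2 protein families themselves, cargo receptors and regulators of the pathway. They were picked by symbol in a table of counts for 55536 mouse genes, and all 35 were found. Of these, 34 passed the filter on low counts and were tested, among 16333 genes tested in all. The remaining member, Wipi1, had 0 counts in all 8 libraries, which allows a level of up to 0.0637 CPM (counts scaled to a common library size) in the smallest library (3 counts, counting error only).

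The RNA came from alphaTC6, a transformed mouse cell line derived from glucagon-producing pancreatic alpha cells, labelled as wild type in every sample. Cells were harvested 48 h after reverse transfection with Lipofectamine RNAiMax, which both groups received. The treated group received pooled siRNAs against Klf4, a zinc finger transcription factor, and the control group a scramble siRNA, with 4 libraries each. The design text calls the libraries biological replicates without saying whether each was a separate transfection, so p-values measure the spread between these libraries. The extraction protocol speaks of islets although each sample is labelled as the cell line. Scramble replicates 1 and 2 and Klf4 siRNA replicates 1, 2 and 4 carried the label batch 1, and scramble replicates 3 and 4 and Klf4 siRNA replicate 3 the label batch 2. What the batch number stands for is not given in the sources used here.

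In macroautophagy, a double membrane grows around cytoplasm, protein aggregates or organelles and closes into an autophagosome, which then fuses with a lysosome. Nutrient shortage releases the ULK1 kinase complex from inhibition by mTORC1. A class III phosphatidylinositol 3-kinase then marks the growing membrane, and LC3 and GABARAP proteins are coupled to its lipids, where cargo receptors bind them. In endocrine cells the pathway is known for turning over organelles and secretory granules.

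Libraries held from 45954151 to 64185987 counts, of which the 35 genes took 0.309% to 0.333%. Levels below are CPM on library sizes scaled by the trimmed mean of M-values (TMM). The line was checked against markers. All 7 alpha cell markers examined were at 1 CPM or more on average, whereas Ins1 and Ins2, the insulin genes that define beta cells, were at 0 in each library. In the list of beta, delta and PP cell markers 1 of 7 was above 1 CPM (Mafa), and the list summed to 3.04 to 3.93 CPM per library. In the list of non-endocrine markers 1 of 9 was above 1 CPM (Col1a2), and that list summed to 12.5 to 22.4 CPM. Klf4 itself stood at 39.2, 35.1, 46.3 and 46.8 CPM across scramble replicates 1 to 4, against at 12.5, 11.5, 19.8 and 18.8 CPM across replicates 1 to 4 of Klf4 siRNA. Each library labelled Klf4 siRNA thus had a lower Klf4 level than each scramble library (log2 fold change -1.33, SE 0.17, edgeR Benjamini-Hochberg adjusted p = 0.0083). Leaving out scramble replicate 1 gave an adjusted p of 0.0524, and batch 1 alone 0.104, in the same direction.

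To compare the genes with each other, their CPM in scramble libraries was divided by the length of their annotated exons in kilobases. Gabarapl1, a GABARAP family member, had the highest level at 142 ± 6.01 CPM per kb (SD, n = 4). Trp53inp2, a nuclear protein that moves to autophagosomes, followed with 110 ± 1.31 CPM per kb, and Sqstm1, the cargo receptor p62, with 92.7 ± 2.34 CPM per kb. Map1lc3a, which encodes LC3A, stood at 76.3 ± 3.45 and Gabarap at 50.1 ± 1.20 CPM per kb. The spreads of these 5 do not touch, so their order was larger than the spread between control libraries. Map1lc3b, which encodes LC3B, was the lowest of the LC3 and GABARAP genes on this scale at 19.7 ± 1.33 CPM per kb, and could not be separated from Becn1 (19.6 ± 0.99) or Ulk1 (18.5 ± 0.966). The Map1lc3b model is long, with 7517 exonic bases, so the quotient depends on how much of it is transcribed in these cells. Among the tested genes, Atg14, Pik3r4 and Tfeb had the lowest levels, with 1.91 ± 0.141, 2.13 ± 0.034 and 2.34 ± 0.225 CPM per kb.

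**Figure D1:**
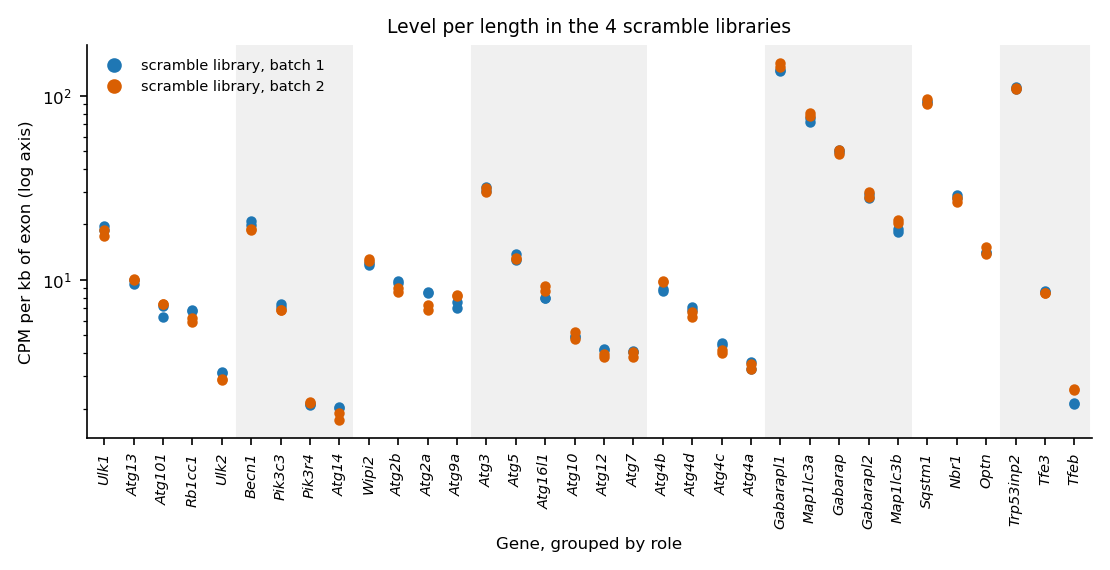
Level of the 34 tested autophagy genes in the 4 scramble libraries, in CPM per kilobase of annotated exon on a log axis, with genes grouped by role (shaded bands) and each point 1 library coloured by batch. Gabarapl1, Trp53inp2 and Sqstm1 are highest, and Atg14, Pik3r4 and Tfeb lowest.

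Klf4 knockdown moved few of these genes, and mostly by small amounts. Map1lc3b fell by 28.3%, Sqstm1 rose by 16.4%, Atg9a rose by 11.2% and Tfe3 fell by 7.37%, on fitted levels. These 4 of 34 were past an adjusted p of 0.05, 2 in each direction. Over all tested genes 11.7% passed the same threshold, 4.88% as higher and 6.81% as lower, so the members' share of 11.8% was that of the background. Among genes with a mean of at least 5 CPM, a level all 34 members had, 5 members passed, and 19.4% of genes. With only 2 members past the threshold when scramble replicate 2 or the batch term was left out, Map1lc3b and Sqstm1 were the ones that stayed (5.88% of members in either fit, against 6.06% and 2.5% of all genes). The members' log2 fold changes had a median of 0.005, with 19 above and 15 below 0, against a median of 0 over all genes. Their median absolute log2 fold change was 0.043, against 0.077 over all genes. The direction was the same within both batches for 25 of the 34, and for 64.8% of all tested genes. The summed level of all members ran from 3157 to 3207 CPM with scramble and from 3208 to 3269 CPM with Klf4 siRNA. Genes with high levels weigh most in this sum, so it does not describe the typical member. Mean levels went from 311.2 to 363.7 CPM for Sqstm1, from 577.5 to 612.8 CPM for Trp53inp2 and from 147.9 to 102.9 CPM for Map1lc3b. No sum over other gene sets was set beside it. In bulk RNA like this, fewer cells of a kind and less RNA per cell cannot be told apart.

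**Figure D2:**
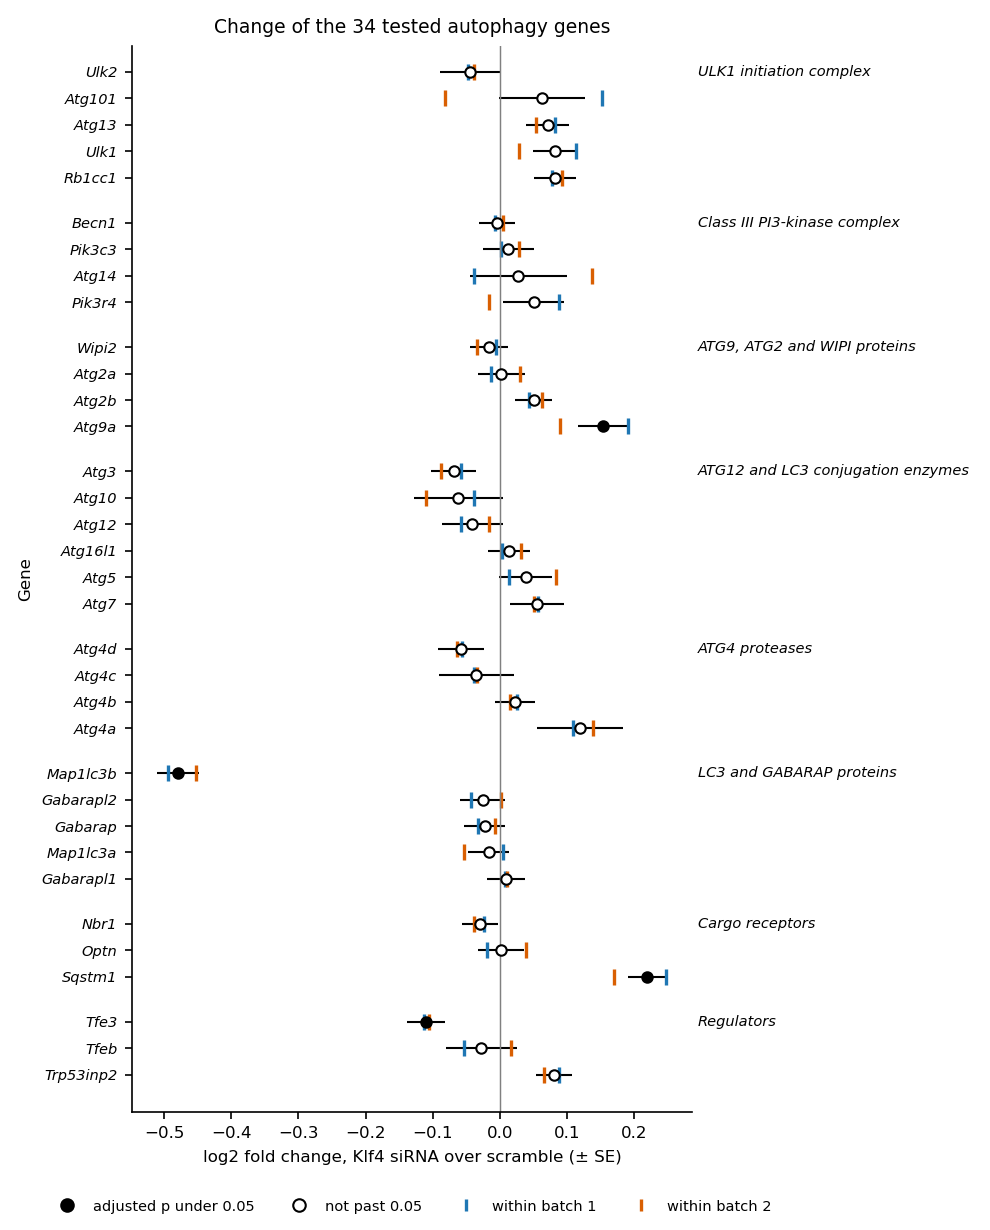
Log2 fold change of Klf4 siRNA over scramble for the 34 tested autophagy genes, grouped by role, with bars for ± SE. Filled circles are past an adjusted p of 0.05, and blue and orange ticks are the changes within batch 1 and batch 2. Map1lc3b at -0.48 lies apart from the other genes, and Sqstm1 at 0.22 is the highest, with a bar that meets that of Atg9a at 0.15.

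Map1lc3b (ENSMUSG00000031812, chromosome 8, positions 121590361 to 121598760 of GRCm38, plus strand) encodes LC3B, the ubiquitin-like protein most often used to mark autophagosomes. Its level was 141.7, 137.6, 152.9 and 159.3 CPM across scramble replicates 1 to 4, against 95.4, 98.3, 114.0 and 103.9 CPM across replicates 1 to 4 of Klf4 siRNA. The groups were well apart, with the highest Klf4 siRNA library, the one from batch 2, still below the lowest scramble library. Means were 147.9 ± 9.97 CPM in scramble and 102.9 ± 8.18 CPM after Klf4 siRNA (SD, n = 4 each). The log2 fold change was -0.48 with an SE of 0.031 and a 95% interval from -0.56 to -0.40 (edgeR quasi-likelihood test, Benjamini-Hochberg adjusted p = 2.83e-09). It was -0.49 within batch 1 and -0.45 within batch 2.

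The other LC3 and GABARAP genes, which encode proteins conjugated to the same lipid, did not pass the test (0 of 4). Gabarapl1 had 274.7, 279.6, 288.2 and 302.3 CPM across scramble replicates 1 to 4, against 272.4, 284.3, 297.2 and 279.3 CPM across replicates 1 to 4 of Klf4 siRNA, and the groups lay over each other. Gabarap ranged from 89.4 to 94.0 CPM in scramble libraries and from 89.3 to 92.6 CPM in Klf4 siRNA libraries. Map1lc3a ranged from 85.2 to 94.9 CPM and from 84.9 to 89.7 CPM, and Gabarapl2 from 64.95 to 70.2 and from 62.3 to 67.8 CPM. For all 4 the Klf4 siRNA range overlapped the scramble range. The 95% intervals of their log2 fold changes were -0.063 to 0.080 for Gabarapl1, -0.10 to 0.054 for Gabarap, -0.098 to 0.064 for Map1lc3a and -0.11 to 0.059 for Gabarapl2. Each of these intervals lies above that of Map1lc3b.

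The Map1lc3b count was also divided by the summed counts of the other 4 in the same library, a quotient that no scaling of libraries changes and that was chosen after the values had been seen. It was 0.274, 0.259, 0.286 and 0.284 across scramble replicates 1 to 4, against 0.187, 0.185, 0.209 and 0.199 across replicates 1 to 4 of Klf4 siRNA. The groups did not overlap, and in both treatments the batch 2 libraries were the upper ones. The means were 0.276 ± 0.0121 and 0.195 ± 0.011 (SD, n = 4 each), given as a description with no test. Of all LC3 and GABARAP counts, Map1lc3b thus held 20.6% to 22.2% in scramble and 15.6% to 17.3% in Klf4 siRNA libraries.

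Among the cargo receptors, which link ubiquitinated cargo to LC3, 1 of 3 passed the test. Sqstm1 (ENSMUSG00000015837, chromosome 11, positions 50199366 to 50210827, minus strand) encodes p62, which is itself degraded by autophagy. It had 314.0, 306.1, 303.8 and 321.0 CPM across scramble replicates 1 to 4, against 366.5, 366.6, 351.3 and 370.4 CPM across replicates 1 to 4 of Klf4 siRNA. The groups did not overlap, and the lowest Klf4 siRNA library was the one from batch 2. Means were 311.2 ± 7.85 and 363.7 ± 8.44 CPM (SD, n = 4 each). The log2 fold change was 0.22 (SE 0.029, edgeR Benjamini-Hochberg adjusted p = 2.87e-05), with 0.25 within batch 1 and 0.17 within batch 2. Nbr1, a related receptor, had a log2 fold change of -0.030 (SE 0.027), and Optn, the receptor optineurin, of 0.002 (SE 0.034), and neither passed.

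**Figure D3:**
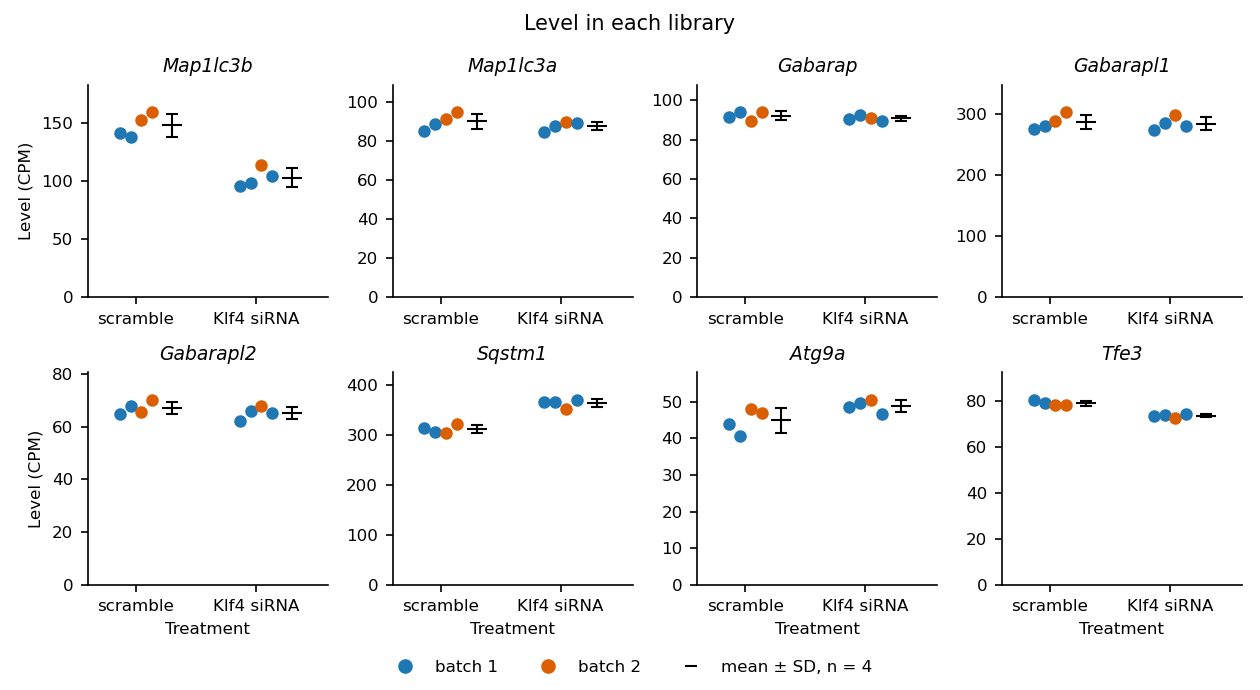
Level in each of the 8 libraries, in CPM on linear axes from 0, for the 5 LC3 and GABARAP genes and for Sqstm1, Atg9a and Tfe3. Points are libraries coloured by batch, and the bar beside each group is the mean ± SD (n = 4). Map1lc3b is lower and Sqstm1 higher in every Klf4 siRNA library, while the other 4 LC3 and GABARAP genes overlap between treatments.

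Of the 5 genes for ATG9, ATG2 and WIPI proteins, which bring membrane and lipid to the growing autophagosome, 4 were tested and 1 passed. Atg9a (ENSMUSG00000033124, chromosome 1, positions 75180860 to 75192196, minus strand) encodes the multispanning protein of the vesicles that seed the autophagosome. Its level was 43.9, 40.7, 48.0 and 47.1 CPM across scramble replicates 1 to 4, against 48.7, 49.7, 50.6 and 46.6 CPM across replicates 1 to 4 of Klf4 siRNA. Over all libraries the groups overlapped, with batch 2 controls inside the range of batch 1 knockdowns, whereas within each batch the Klf4 siRNA libraries were the higher ones. The means of 44.9 ± 3.30 and 48.9 ± 1.72 CPM (SD, n = 4 each) gave a batch-adjusted log2 fold change of 0.15 (SE 0.037, edgeR Benjamini-Hochberg adjusted p = 0.00827). This call needed the batch term (adjusted p = 0.34 without it, 0.175 with a replicate block) and was lost without scramble replicate 2 (0.111). Atg2a and Atg2b, lipid transfer proteins, had log2 fold changes of 0.002 (SE 0.035) and 0.050 (SE 0.028), and Wipi2, which reads the phosphoinositide mark, of -0.016 (SE 0.028).

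Among the 3 regulators, 1 passed. Tfe3 (ENSMUSG00000000134, chromosome X, positions 7762560 to 7775202, plus strand) encodes a basic helix-loop-helix factor that activates lysosomal and autophagy genes. It had 80.7, 79.5, 78.3 and 78.5 CPM across scramble replicates 1 to 4, against 73.7, 73.9, 72.9 and 74.6 CPM across replicates 1 to 4 of Klf4 siRNA. The difference was small but the groups did not overlap, at 79.2 ± 1.12 and 73.8 ± 0.737 CPM (SD, n = 4 each). The log2 fold change was -0.11 (SE 0.028, edgeR Benjamini-Hochberg adjusted p = 0.0126), and -0.11 within either batch. Its adjusted p was above the threshold in 5 of 17 alternatives: 0.0848 without the batch term, 0.0712 in batch 1 alone, 0.0936 and 0.0565 without scramble replicate 1 or 2, and 0.0716 without Klf4 siRNA replicate 3. Tfeb, the related factor, was much lower in level, from 12.1 to 14.4 CPM in scramble and from 11.2 to 14.5 CPM in Klf4 siRNA libraries, with a log2 fold change of -0.028 (SE 0.053).

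Trp53inp2, the remaining regulator, had 572.9, 587.2, 577.5 and 572.2 CPM across scramble replicates 1 to 4, against 603.0, 621.1, 601.2 and 625.8 CPM across replicates 1 to 4 of Klf4 siRNA. All Klf4 siRNA libraries were above all scramble libraries, yet the log2 fold change of 0.080 (SE 0.027) missed the threshold (edgeR Benjamini-Hochberg adjusted p = 0.0611). It passed with the Wald test of DESeq2 (adjusted p = 0.0268), with limma-voom (0.0403) and when only genes with a mean of at least 5 CPM were tested (0.0478).

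The ULK1 complex, the kinase that starts the process, had 0 of 5 genes past the threshold. At an unadjusted p under 0.05 it had 3 of 5, against 9 of 34 members and 23.9% of all genes. Of its genes, 4 had positive log2 fold changes: Ulk1, the kinase, with 0.082 (SE 0.033, edgeR Benjamini-Hochberg adjusted p = 0.127), Rb1cc1, the scaffold FIP200, with 0.082 (SE 0.031, adjusted p = 0.0969), and the adaptors Atg13 with 0.071 (SE 0.032, adjusted p = 0.181) and Atg101 with 0.063 (SE 0.064, adjusted p = 0.617). Ulk2, the other kinase, had -0.045 (SE 0.045). Atg13 was the member of this group whose treatments did not overlap, at 41.5 to 44.2 CPM with scramble and 44.9 to 45.6 CPM with Klf4 siRNA. Ulk1 passed with a replicate block (adjusted p = 0.0261) and without scramble replicate 4 (0.0279), and Rb1cc1 without Klf4 siRNA replicate 4 (0.0196).

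The class III phosphatidylinositol 3-kinase complex had 0 of 4 genes past the threshold. Pik3c3, the catalytic VPS34, had a log2 fold change of 0.012 (SE 0.038), its partner kinase Pik3r4 0.050 (SE 0.045), Becn1, the scaffold Beclin 1, -0.004 (SE 0.027) and Atg14, which directs the complex to autophagy, 0.027 (SE 0.072). Atg14 was low, at 7.46 to 9.44 CPM, and its interval from -0.16 to 0.21 is wide. For Becn1 the interval ran from -0.073 to 0.064, so a change of the size seen for Sqstm1 lies outside it.

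Neither the conjugation enzymes (0 of 6) nor the ATG4 proteases (0 of 4) had a gene past the threshold. Atg3, the E2-like enzyme that hands LC3 to lipid, had the lowest log2 fold change of the first group, -0.069 (SE 0.033, edgeR Benjamini-Hochberg adjusted p = 0.202), and Atg7, the E1-like enzyme, the highest, 0.055 (SE 0.040). Atg5, Atg12 and Atg16l1, which form the E3-like complex, had 0.038, -0.041 and 0.013, and Atg10, the E2-like enzyme for ATG12, -0.062. The ATG4 proteases trim LC3 and GABARAP before conjugation. Atg4a had a log2 fold change of 0.12 (SE 0.064, adjusted p = 0.274), Atg4b of 0.022, Atg4c of -0.035 and Atg4d of -0.058.

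Promoter windows, from 250 bases before to 50 bases after an annotated start, were taken from RefSeq (GRCm38.p6) for 29 of the 35 genes. The windows of the 4 genes that passed the treatment test are printed because they are the sequences nearest to the changes. Each is 5′ to 3′ on the gene's own strand, and capitals mark a match to 1 of 3 motifs searched on both strands. These were CACGTG (the core of the element that TFEB and TFE3 bind), its longer form TCACGTGA, which contains the core, and CCACACCC (a box of the kind KLF factors bind). The windows are Map1lc3b at chr8:121590188-121590487 (plus strand), Sqstm1 at chr11:50210771-50211070 (minus), Atg9a at chr1:75191961-75192260 (minus) and the first of 2 Tfe3 windows at chrX:7762411-7762710 (plus). The Atg3 stretch at chr16:45158729-45158778 (plus) is added as the member window with both CACGTG forms.
Map1lc3b: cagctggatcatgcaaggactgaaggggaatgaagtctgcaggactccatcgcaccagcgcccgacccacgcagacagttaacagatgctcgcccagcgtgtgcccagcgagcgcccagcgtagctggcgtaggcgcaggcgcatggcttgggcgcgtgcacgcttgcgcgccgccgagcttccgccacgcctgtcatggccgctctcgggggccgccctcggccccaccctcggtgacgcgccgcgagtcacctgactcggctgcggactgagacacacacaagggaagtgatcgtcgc
Sqstm1: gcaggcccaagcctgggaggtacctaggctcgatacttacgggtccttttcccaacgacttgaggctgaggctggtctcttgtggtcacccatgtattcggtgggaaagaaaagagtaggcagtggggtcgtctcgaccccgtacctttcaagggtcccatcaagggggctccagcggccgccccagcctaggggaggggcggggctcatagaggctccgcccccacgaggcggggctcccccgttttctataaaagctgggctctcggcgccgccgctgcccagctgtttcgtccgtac
Atg9a: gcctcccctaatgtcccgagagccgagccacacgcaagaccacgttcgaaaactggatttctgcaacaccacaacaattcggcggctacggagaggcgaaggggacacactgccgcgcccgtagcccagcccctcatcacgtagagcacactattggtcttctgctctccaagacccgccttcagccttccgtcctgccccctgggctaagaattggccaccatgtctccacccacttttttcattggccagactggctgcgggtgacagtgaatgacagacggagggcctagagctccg
Tfe3: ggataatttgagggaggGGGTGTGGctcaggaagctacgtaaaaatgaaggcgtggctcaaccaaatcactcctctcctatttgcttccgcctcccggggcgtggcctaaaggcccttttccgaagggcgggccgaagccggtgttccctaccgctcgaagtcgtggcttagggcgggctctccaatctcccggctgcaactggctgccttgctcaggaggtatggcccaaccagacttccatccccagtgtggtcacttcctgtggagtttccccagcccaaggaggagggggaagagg
Atg3: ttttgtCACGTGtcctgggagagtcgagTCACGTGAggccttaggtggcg

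The Map1lc3b, Sqstm1 and Atg9a windows held no exact match to any of the 3 motifs. Tfe3 had CCACACCC, on the opposite strand, at position -233 from its start. That motif was also in Ulk2 (-149) and Atg4d (-58), and so in 3 of 29 genes (10.3%), against 4.09% of 27025 genes in the RefSeq table. CACGTG was in Atg14 (-1), Atg3 (first at -94), Atg5 (-14) and Atg7 (-132), 4 of 29 genes (13.8%) against 8.09%. TCACGTGA was in Atg3 alone (-72), 1 of 29 (3.45%) against 1.12%. A match describes letters in the window and not a bound site. Only these exact letters were searched, so a window without a match may still hold other forms of KLF, TFEB or TFE3 sites.

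Annotations that overlap these genes or share sequence with them were checked, since the use of strand in counting is not given in the sources used here. The reads themselves were not examined. Sqstm1 shares 580 exonic bases, 17.3% of its model, with Mrnip on the opposite strand. Mrnip had means of 6.64 CPM with scramble and 6.97 CPM with Klf4 siRNA. Map1lc3b shares 58 bases (0.772%) with Zcchc14 on the opposite strand, which went from 126.3 to 118.5 CPM (log2 fold change -0.11, edgeR Benjamini-Hochberg adjusted p = 0.0149). Atg9a shares 46 bases (0.798%) with Ankzf1 on the opposite strand, and on its own strand 1832 bases (31.8%) with Gm29253, which was at 0 CPM. Becn1 shares 43.9% of its exonic bases with Cntd1, Gabarapl1 28.3% with 1700101I11Rik and Atg4d 19.3% with Kri1, all on the opposite strand. Gm44243 lies inside Gabarapl1 on the same strand with no exonic base in common, and went from 1.76 ± 0.426 to 2.45 ± 0.513 CPM (SD, n = 4 each; log2 fold change 0.57, SE 0.154, adjusted p = 0.0229). This call was lost in 6 of 16 alternatives: without the batch term (adjusted p = 0.336), in batch 1 alone (0.0555), with a replicate block (0.0645), and when scramble replicate 1 (0.106), scramble replicate 2 (0.123) or replicate 1 of Klf4 siRNA (0.0635) was left out. In exact stretches of 50 bases, Atg4a shares 51.2% of its sequence with the pseudogene Atg4a-ps, so its value of 9.07 ± 0.393 CPM in scramble libraries is uncertain. Map1lc3b shares at most 3.67%, with Gm6055, which had means of 1.67 CPM with scramble and 1.23 CPM with Klf4 siRNA.

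More of these genes passed the test between batches than the test of treatment. Past an adjusted p of 0.05, 13 of 34 members (38.2%) differed between batches, 6 higher and 7 lower in batch 2, against 32.7% of all tested genes (16.8% higher, 15.9% lower). Among genes with a mean of at least 5 CPM, 14 members passed, and 39.1% of genes. The batch difference was larger than the treatment change in 21 of 34 members, and in 63% of all tested genes. The median absolute batch difference was 0.071 on the log2 scale in members and 0.118 over all genes. Of the members, 2 genes, Map1lc3b and Atg9a, passed both tests, against 5.5% of all genes. The summed alpha cell markers also differed, from 4700 to 4990 CPM in batch 1 libraries and from 11700 to 13000 CPM in batch 2 libraries. That difference came with the autophagy differences, and its part in them was not tested.

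Tfeb had the largest rise in batch 2. Its level was 12.2, 12.1, 12.0, 11.2 and 11.9 CPM in the 5 batch 1 libraries and 14.4, 14.3 and 14.5 CPM in the 3 batch 2 libraries. The batches did not overlap. Klf4 siRNA libraries were the lower ones within batch 1 and the higher one within batch 2, by less than the gap between batches (11.9 ± 0.388 CPM, n = 5, and 14.4 ± 0.133 CPM, n = 3, SD), a log2 difference of 0.27 (SE 0.054, edgeR Benjamini-Hochberg adjusted p = 0.000604). Atg16l1, part of the E3-like complex, followed with 76.7 ± 1.41 and 87.2 ± 2.77 CPM (log2 difference 0.19, SE 0.032, adjusted p = 8.9e-05). Map1lc3b came next, with a log2 difference of 0.18 (SE 0.032, adjusted p = 0.000213) in the fit that also holds treatment. Batch 1 holds 3 of the 4 knockdown libraries, and in the fit with no treatment term the log2 difference was 0.30 with an adjusted p of 0.32.

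Atg2a had the largest fall in batch 2, from 66.2, 64.9, 68.9, 63.2 and 63.0 CPM in batch 1 to 52.8, 56.2 and 55.6 CPM in batch 2. The batches were apart whatever the treatment (log2 difference -0.25, SE 0.037, edgeR Benjamini-Hochberg adjusted p = 1.89e-05). Rb1cc1 had 103.1 ± 4.11 and 90.9 ± 3.94 CPM (-0.16, SE 0.032, adjusted p = 0.000634), and Atg2b 133.9 ± 2.59 and 119.9 ± 4.35 CPM (-0.15, SE 0.029, adjusted p = 0.000517), each with n = 5 and n = 3 (SD). Ulk1, Ulk2, Becn1 and Atg4d were the other genes past the threshold as lower in batch 2, and Atg4b, Gabarapl1 and Atg9a as higher. Of 16 alternatives, Becn1 and Atg4b passed in all. Ulk1 was lost in 2 (adjusted p up to 0.143), Atg9a in 4 (up to 0.347), Atg4d in 5 (up to 0.108), Gabarapl1 in 5 (up to 0.183) and Ulk2 in 11 (up to 0.162). Single libraries ended a call for Ulk1 (Klf4 siRNA replicate 3), Atg9a (scramble replicate 2 or 3), Atg4d (scramble replicate 2 or 3, or Klf4 siRNA replicate 3) and Gabarapl1 (scramble replicate 1 or 4, or Klf4 siRNA replicate 3). For Ulk2, 7 of the 8 libraries did so, all but Klf4 siRNA replicate 4.

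**Figure D4:**
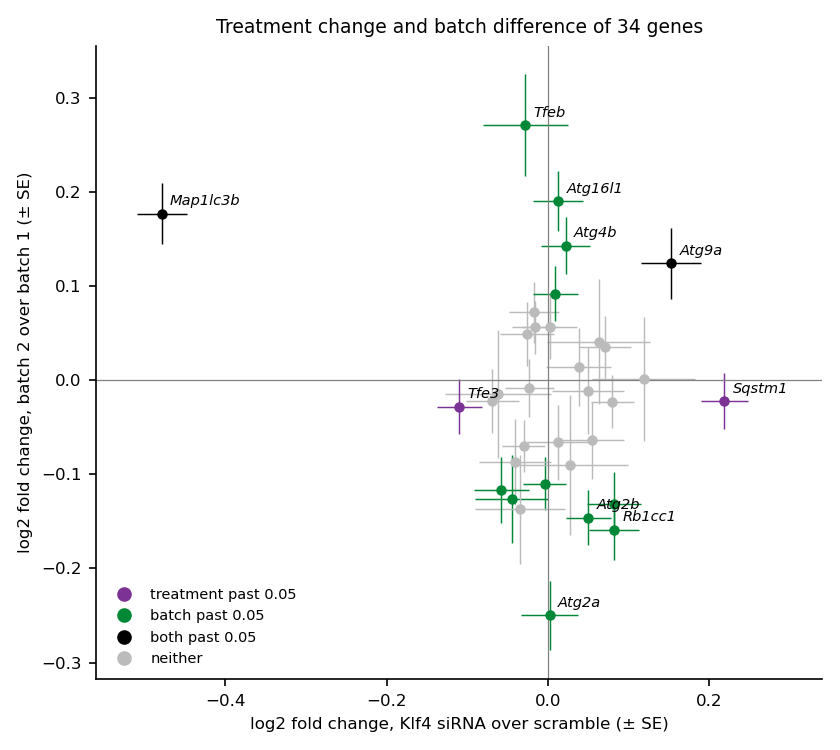
Log2 fold change of Klf4 siRNA over scramble (horizontal axis) and of batch 2 over batch 1 (vertical axis), both with bars for ± SE, for the 34 tested autophagy genes. Colours give the tests passed. Map1lc3b lies at the far left, Sqstm1 and Tfe3 near the zero line of the batch axis, and Tfeb and Atg2a at the ends of the batch axis near no treatment change.

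Whether the knockdown effect itself differed between batches was tested with an interaction term in edgeR. None of the 34 members passed (0 against 0% of all genes, smallest Benjamini-Hochberg adjusted p of a member 0.999), and 0 had an unadjusted p under 0.05, against 3.31% of all genes. With 1 Klf4 siRNA library in batch 2, this test rests on a single library there.

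Another 55 genes that act on the pathway from outside this core were read from the same fit. More of them passed the treatment test: 15 of 55 (27.3%), with 8 higher and 7 lower, against 11.7% of all genes. The list was drawn up with earlier results known, and the count moved with the fit. It was 4 (7.27%) without the batch term, where 2.5% of all genes passed. Leaving out scramble replicate 1 gave 6 (10.9%, against 5.63% of all genes), and leaving out scramble replicate 2 gave 8 (14.5%, against 6.06%). Among genes with a mean of at least 5 CPM, 16 of 54 passed, against 19.4% of genes. Their log2 fold changes had a median of 0.013 and a median absolute value of 0.065, against 0 and 0.077 over all genes.

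The largest changes were in transcription regulators (3 of 5 passed). Trp53inp1, a p53-induced relative of Trp53inp2 whose protein also binds LC3, had 161.7, 156.2, 144.8 and 143.6 CPM across scramble replicates 1 to 4, against 241.0, 248.4, 206.9 and 247.0 CPM across replicates 1 to 4 of Klf4 siRNA. The groups were far apart (log2 fold change 0.59, SE 0.029, edgeR Benjamini-Hochberg adjusted p = 8.88e-11). Foxo3, a forkhead factor that activates autophagy genes, fell from 57.2 ± 1.83 to 46.4 ± 2.39 CPM (SD, n = 4 each; -0.31, SE 0.038, adjusted p = 1.01e-05). Foxo1, its relative, went the other way, from 49.4 ± 2.54 to 54.4 ± 1.77 CPM (0.16, SE 0.034, adjusted p = 0.00262).

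Of mTORC1, the kinase complex that holds ULK1 in check, and its activators and inhibitors, 1 of 13 genes passed. Rragd, a Rag GTPase that recruits mTORC1 to lysosomes, rose from 110.0 ± 6.48 to 132.4 ± 5.97 CPM (SD, n = 4 each; log2 fold change 0.24, SE 0.029, edgeR Benjamini-Hochberg adjusted p = 9.77e-06). Of AMPK subunits and their kinase, which activate ULK1 when energy is low, 3 of 7 passed. The catalytic subunit Prkaa2 rose (log2 fold change 0.22, SE 0.042, adjusted p = 0.00137), and the regulatory subunits Prkab1 (-0.11, SE 0.033, adjusted p = 0.0319) and Prkag2 (-0.16, SE 0.048, adjusted p = 0.0344) fell.

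Of 12 other genes of selective autophagy, receptors and adaptors with the kinases Tbk1 and Pink1, 4 passed. Tollip, an adaptor for ubiquitinated aggregates, fell from 149.0 ± 1.57 to 125.8 ± 4.42 CPM (SD, n = 4 each; log2 fold change -0.24, SE 0.029, edgeR Benjamini-Hochberg adjusted p = 1.03e-05). Sec62, a receptor for endoplasmic reticulum, fell (-0.13, SE 0.030, adjusted p = 0.00649), and Tbk1, the kinase that phosphorylates OPTN and p62, rose (0.12, SE 0.034, adjusted p = 0.0219). The fourth, named after its value was seen, was the receptor Tax1bp1 (0.11, SE 0.030, adjusted p = 0.0249).

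Of autophagosome fusion genes 3 of 9 passed. Stx17, the SNARE of the finished autophagosome, rose (log2 fold change 0.19, SE 0.043, edgeR Benjamini-Hochberg adjusted p = 0.0063). Vps39, a subunit of the HOPS tethering complex, fell (-0.12, SE 0.030, adjusted p = 0.0135). Tecpr1, a tether between autophagosome and lysosome, passed with 0.11 (SE 0.034, adjusted p = 0.0395), at 0.17 within batch 1 and 0.005 within batch 2. Zfyve1, a marker of the membrane sites where autophagosomes form, fell by 0.17 on the log2 scale (SE 0.038, adjusted p = 0.00704) and was the 1 of 5 genes of other membrane sources that passed. None of 4 partners of the phosphatidylinositol 3-kinase complex passed, and their log2 fold changes lay between -0.071 and 0.068.

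Over the 17 alternatives for each gene, Trp53inp1, Foxo3, Rragd and Tollip stayed past the threshold in all. Foxo1 and Prkaa2 were lost in 1, the fit with no batch term (adjusted p = 0.155 and 0.115), and Sec62 in 2. Stx17 and Zfyve1 were lost in 4 each, Vps39 and Tax1bp1 in 5, Tbk1 in 7, Prkag2 and Tecpr1 in 8, and Prkab1 in 10.

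**Figure D5:**
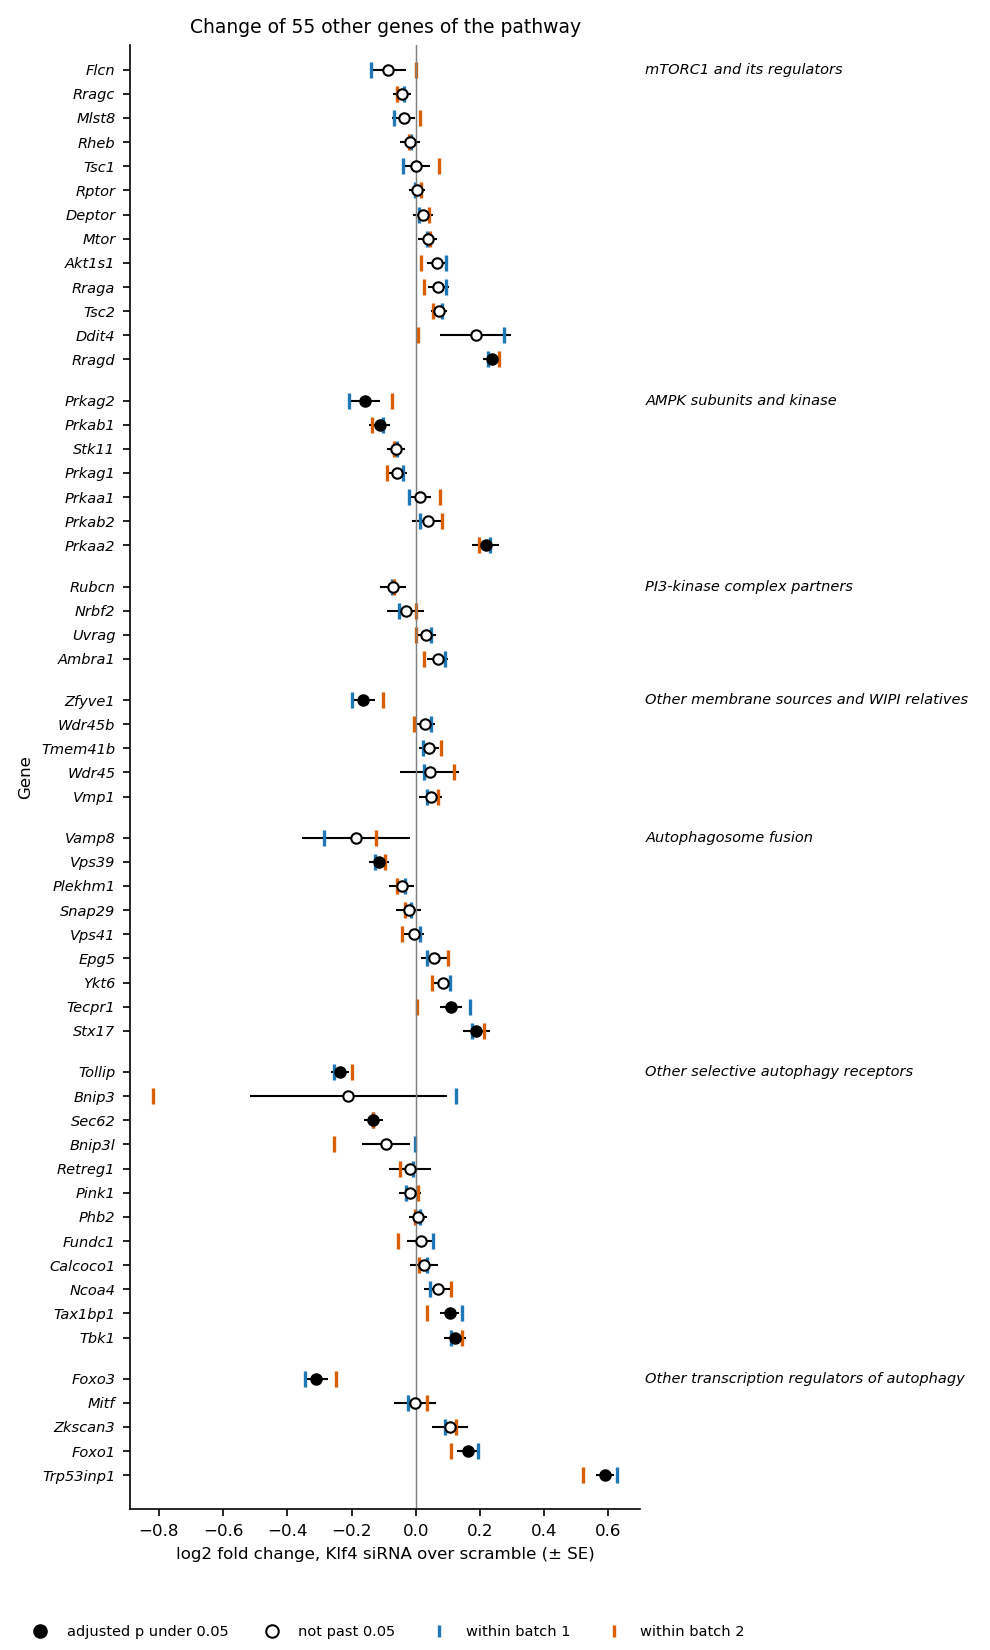
Log2 fold change of Klf4 siRNA over scramble for 55 other genes of the pathway, grouped by list, with bars for ± SE. Filled circles are past an adjusted p of 0.05, and blue and orange ticks are the changes within batch 1 and batch 2. Trp53inp1 at 0.59 and Foxo3 at -0.31 are at the ends of the range of called genes.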

How the data were processed

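The authors deposited whole-number counts per gene for 8 libraries. The submitters' processing notes name STAR, featureCounts, DESeq2 and the build mm10, and the design text names edgeR with batch correction. Use of strand and of reads with several matches is not given in the sources used here. All 55536 gene identifiers matched GENCODE M21 (GRCm38), whose union of exons gave lengths.

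From these counts, genes were kept with filterByExpr (16333), scaled with TMM (factors 0.964 to 1.02) and tested for treatment with batch as a covariate by the robust quasi-likelihood method of edgeR 4.0.16 in R 4.3.3, Benjamini-Hochberg adjusted over all tested genes, two-sided, threshold 0.05. Interaction of batch and treatment had its own fit. Within-batch changes are differences of mean log2 CPM (prior count 2). Intervals are 95% and use 5 residual degrees of freedom. The script was tested on simulated data.

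Members and lists were chosen with earlier results of these data known. Named were members past the threshold, extremes, the 3 largest batch changes each way and up to 3 called genes per pathway list. Alternatives were no batch term, batch 1 alone, a replicate block, DESeq2 1.42.0 size factors or Wald test, library size alone, limma-voom 3.58.1, no filter, at least 5 CPM and each library left out. For batch they were also no treatment term and scramble libraries alone. Protein sequences were not used here. In 28 pairs no library was a duplicate (chi-square at least 10.2 per degree of freedom).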

Additional observations from a re-analysis of the deposited data

Results flagged for a closer look

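In 68 groups of 4 libraries (34 genes, 2 treatments), 2 held a library whose gap to the nearest other exceeded Dixon's 95% critical value as a share of the group's range. Chance alone flags about 1 in 20 groups, here 3.4. For Becn1 in Klf4 siRNA libraries the share was 0.95: replicate 3, the only one of batch 2, had 133.0 CPM and the others 142.6, 143.1 and 142.8 CPM. The batch 2 scramble libraries had 133.3 and 132.0 CPM of Becn1. For Atg10 in Klf4 siRNA libraries the share was 0.863: replicate 2 had 8.84 CPM and the others 8.06, 7.96 and 7.94 CPM.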

How the results depend on the processing

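Members past the threshold numbered 4, and 2 without the batch term. With 1 library left out they numbered 2 to 5, the lowest without scramble replicate 2. The other pathway genes numbered 15, 4 without the batch term and 6 to 15 with 1 library left out. Over all genes, 1909 passed, against 409 without the batch term, 1232 in batch 1 alone, 1220 with a replicate block and 934 to 2021 with 1 library left out (934 without scramble replicate 1, 1012 without scramble replicate 2, 1232 without Klf4 siRNA replicate 3). Members that differed between batches numbered 13, and 9 to 17 under all alternatives run (9 in 3 of them, such as without Klf4 siRNA replicate 3, where 3843 of 16566 genes passed, and 17 without Klf4 siRNA replicate 4, where 6210 of 16682 did); library size alone moved the median batch difference of all genes to -0.037 and gave 4 higher and 9 lower in place of 6 and 7. Interaction calls among members stayed at 0 in the 7 fits possible with 1 library left out, and none was possible without Klf4 siRNA replicate 3. No called value changed sign. Map1lc3b kept a log2 fold change of -0.52 to -0.46 and Sqstm1 of 0.20 to 0.25, both past the threshold in all 17 alternatives. In the fit with the replicate number as a block in place of batch, 4 members passed, 3 of them shared (Map1lc3b, Sqstm1 and Tfe3, with Ulk1 in place of Atg9a), and 10 pathway genes. Deviations of same-numbered libraries correlated at 0.49, 0.42, 0.72 and -0.34 for numbers 1 to 4, and 5 of 8 libraries correlated best with their own number, so the numbers were not taken as pairs. The cause of lost calls was not tested. Small changes near 0.1 on the log2 scale, and members under about 10 CPM, are limited by 4 libraries a group and 1 knockdown library in batch 2.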

Other observations

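A few pathway genes outside the naming rule are given here, chosen after their values were seen. Vamp8, the SNARE on lysosomes and late endosomes that pairs with STX17, had 0.243 ± 0.0456 CPM in batch 1 (SD, n = 5) and 2.50 ± 0.213 CPM in batch 2 (SD, n = 3), a log2 difference of 3.30 (SE 0.170, edgeR Benjamini-Hochberg adjusted p = 4.27e-12). Retreg1, a receptor for endoplasmic reticulum, had 23.4 ± 2.23 and 32.5 ± 0.682 CPM (0.47, SE 0.067, adjusted p = 0.000104). Bnip3, a mitochondrial receptor, had 39.4, 40.9, 54.5 and 88.2 CPM in scramble replicates 1 to 4 and 37.1, 54.1, 39.3 and 41.8 CPM in Klf4 siRNA replicates 1 to 4. Its log2 change with treatment was 0.13 within batch 1 and -0.82 within batch 2, where scramble replicate 4 was the highest library. It passed neither the treatment test (adjusted p = 0.768) nor the batch test (log2 difference 0.43, SE 0.313, adjusted p = 0.384).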
